A study of Mus musculus with 6 samples.

Results

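The annexins are the subject here, a family of calcium-dependent proteins that bind acidic phospholipids on the inner face of cell membranes. Its 10 members, Anxa1 to Anxa8, Anxa10 and Anxa11, were found by gene symbol among 19661 genes tested, and all 10 had a probe set named for that gene alone. Members were chosen by gene symbol, and for a gene with several probe sets, here Anxa6, the one used was selected on the highest mean over all 6 arrays. The family was chosen with earlier results of these data known, among them a large decrease of Anxa5, so the Anxa5 values are given as a description with no test.

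Expression was measured on 1-colour arrays in megakaryocyte-erythroid progenitors (MEP), the marrow precursors of platelets and red cells, of B6.129 mice. The control group was Fog1+/+, with both Fog1 alleles intact, and the other was Fog1ki/ki, homozygous for a Fog1 knock-in, with 3 arrays each that the labels call biological replicates. The labels give no age and no treatment, do not describe the knock-in, and do not say whether animals were pooled. Zfpm1 encodes FOG1, through which the transcription factor GATA1 controls erythroid and megakaryocyte genes. As the study is generally known, the knock-in protein has lost its contact with the NuRD chromatin complex, and the question is which genes need that contact. The sort kept Kit-positive cells that lacked lineage markers, Sca1 and CD34 and were low for FcgrII/III.

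Annexins share a core of repeated domains that docks on phosphatidylserine and related lipids when calcium rises, and differ in a short N-terminal tail that binds partner proteins, often of the S100 family. Through these contacts they are known to act in membrane repair, vesicle traffic, the link between membrane and actin, and the shielding of phosphatidylserine from clotting factors. Platelets and red cells both use exposed phosphatidylserine, platelets to support clotting and ageing cells as a signal for uptake.

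Values are log2 RMA expression, on which a step of 1 is a doubling. They are compared only between genotypes for the same gene, since probe sets differ in brightness for reasons other than RNA level. The arrays were alike in level, with medians between 6.02 and 6.15 and lower quartiles between 4.81 and 4.92. Zfpm1 measured 7.57, 7.37 and 7.80 in Fog1+/+ and 7.65, 7.5 and 7.73 in Fog1ki/ki, which does not check the labels, since the knock-in is not described there. Of the 10 measured markers of the sorted cell type, all 10 lay above the array medians in every array and 7 above the upper quartiles, Gata1, Klf1 and Tfrc among the markers. Replicate 3 of each genotype stood apart in the Y-linked gene Eif2s3y, at 3.21 and 3.46 against 9.29 to 9.44 in the other 4 arrays, and results past the threshold are therefore also given without both.

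Anxa5, which binds phosphatidylserine and assembles into a lattice on the membrane, was the member with the large difference. Its values were 9.02, 9.14 and 8.91 in Fog1+/+ and 6.88, 6.79 and 6.73 in Fog1ki/ki. All 3 Fog1ki/ki arrays were low, and the nearest arrays of the genotypes lay 2.03 apart, while the arrays within a genotype spanned 0.23 and 0.15. The means were 9.02 ± 0.12 and 6.80 ± 0.08 (SD, n = 3 each), a 4.67-fold lower level in Fog1ki/ki with a log2 difference of -2.22 (SE 0.10). By size this was the third largest decrease among the 19661 genes. Without both replicates 3 the difference was -2.25, and over all 18 alternative settings it ran from -2.28 to -2.165. Some of these settings, such as another p threshold, cannot change a difference. In bulk samples such as these, fewer cells that express a gene and less RNA per cell cannot be told apart.

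Anxa4, a close relative known from secretory epithelia that binds and stiffens membranes, went the other way. It measured 6.41, 6.25 and 6.37 in Fog1+/+ and 7.15, 6.91 and 6.90 in Fog1ki/ki. The genotypes did not overlap, with 0.49 between their nearest arrays. Anxa4 rose 1.56-fold, from 6.34 ± 0.08 to 6.99 ± 0.14 (SD, n = 3 each), which on the log2 scale is 0.64 (SE 0.10, limma adjusted p = 0.0310 over all genes). A difference at least as high was found in 0.743% of all genes, and Anxa4 was number 60 by size of the 74 genes that rose. Leaving out a single array, whichever of the 6 it was, ended the call (limma adjusted p 0.0527 without Fog1ki/ki replicate 1 to 0.135 without Fog1+/+ replicate 3). It was also lost with arrays centred on their medians (0.106), with a term for the arrays with low Eif2s3y (0.0547) and without both of those arrays (0.264), so that its adjusted p ran from 0.0234 to 0.264 while the log2 difference stayed between 0.56 and 0.70.

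**Figure D1:**
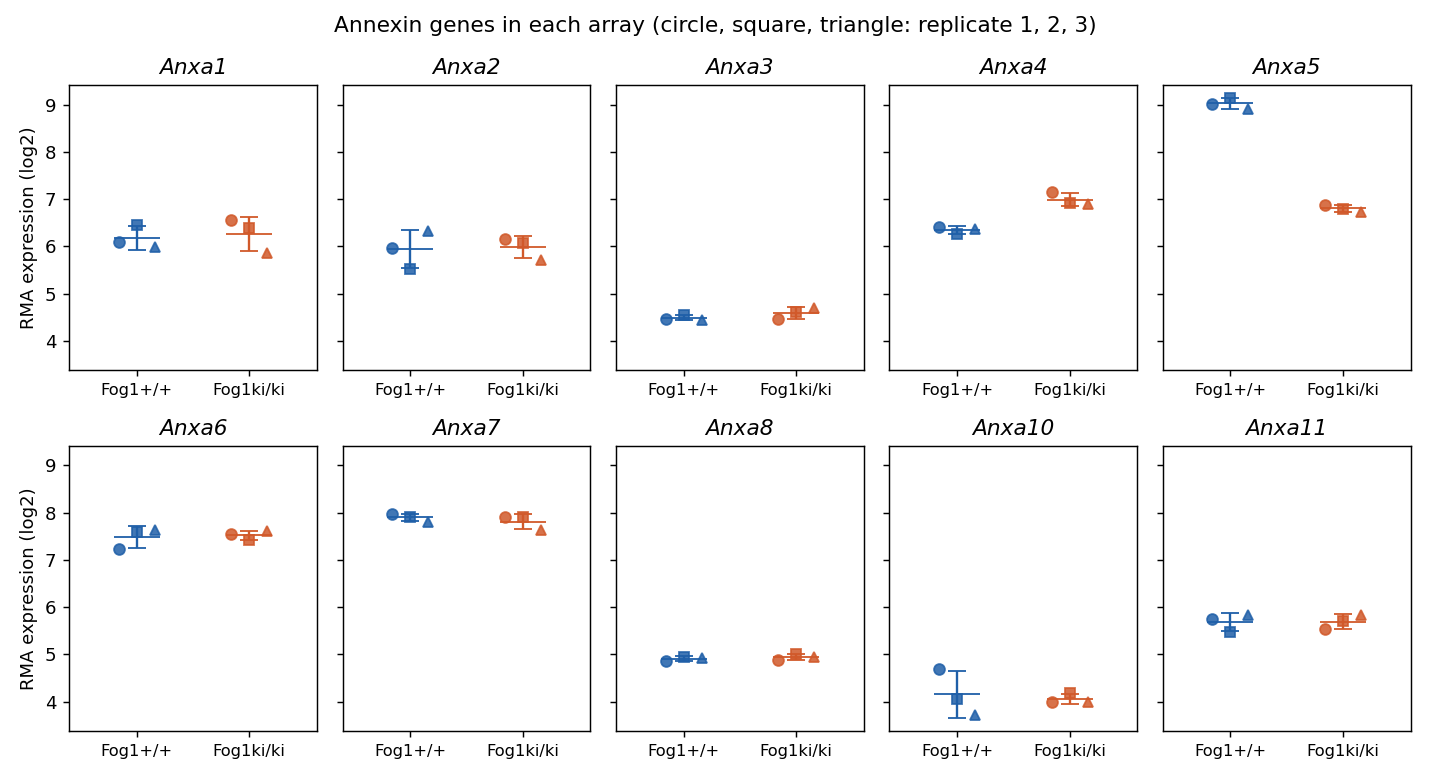
RMA expression on the log2 scale (vertical axis) of the 10 annexin genes in each array, by genotype, where points are arrays, marker shapes are replicate numbers, long horizontal bars are means and error bars are SD. The Anxa5 arrays of Fog1ki/ki (6.73 to 6.88) lie far below those of Fog1+/+ (8.91 to 9.14), the Anxa4 arrays of Fog1ki/ki (6.90 to 7.15) lie above those of Fog1+/+ (6.25 to 6.41), and in the other 8 genes the genotypes overlap.

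Since GATA1 reads short GATA words in DNA, the 250 bases before the start sites of both genes were searched for the word GATA with A or T before it and A or G after it, on both strands. The sequences are from RefSeq on GRCm38.p6, written 5′ to 3′ on the strand of the gene, with matches in capitals. These 2 genes are shown because they are the members whose arrays did not overlap, and for Anxa4 the window that holds matches is printed. The Anxa5 window, chr3:36475888-36476137 on the minus strand, holds no such word. Anxa4 has 2 listed starts, and the window before the second, chr6:86775115-86775364 on the minus strand and inside the gene, holds 2.
Anxa5: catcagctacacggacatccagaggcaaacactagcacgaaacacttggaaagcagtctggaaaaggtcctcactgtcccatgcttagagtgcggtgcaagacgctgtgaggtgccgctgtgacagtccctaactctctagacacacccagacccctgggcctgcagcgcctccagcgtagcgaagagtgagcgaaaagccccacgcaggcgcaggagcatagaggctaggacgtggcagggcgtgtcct
Anxa4: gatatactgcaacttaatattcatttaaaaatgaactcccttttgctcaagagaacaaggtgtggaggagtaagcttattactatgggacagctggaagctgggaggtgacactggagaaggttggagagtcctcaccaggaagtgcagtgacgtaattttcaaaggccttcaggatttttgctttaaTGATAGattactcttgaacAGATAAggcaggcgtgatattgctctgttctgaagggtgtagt

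The window before the first Anxa4 start holds no match. Of the 8 members with a listed window (Anxa3 and Anxa6 were not among them), 3 had a match, Anxa4, Anxa7 and Anxa10, in 4 of 10 windows. Both Anxa7 windows overlap and hold the same match, so that 1 site was counted in each. Of 32536 windows of this length, 26.5% hold at least 1 such word. A match is a description of the letters, and these arrays measured no binding.

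Of the 9 members other than Anxa5, Anxa4 rose in limma (adjusted p under 0.05) and 8 did not pass, beside 0.773% of all genes past the threshold (0.376% higher and 0.397% lower). Anxa4 was also the only one of the 9 at an unadjusted p under 0.05, as were 9.57% of all genes. In Anxa4 and Anxa5 the arrays of the genotypes lay apart, and in the other 8 they overlapped. Over all genes 14.8% had arrays that lay apart (8.31% with Fog1ki/ki higher and 6.53% with Fog1ki/ki lower). The median log2 difference was 0.037 over the 10 members and 0.023 over all genes. The other 8 members had log2 differences from -0.09 to 0.10, with limma adjusted p from 0.822 to 0.991. The 95% interval of each included 0, from the narrow one of Anxa8 (-0.17 to 0.23) to the wide one of Anxa10 (-0.57 to 0.39), and a difference inside a gene's own interval cannot be told from 0 with these 6 arrays.

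**Figure D2:**
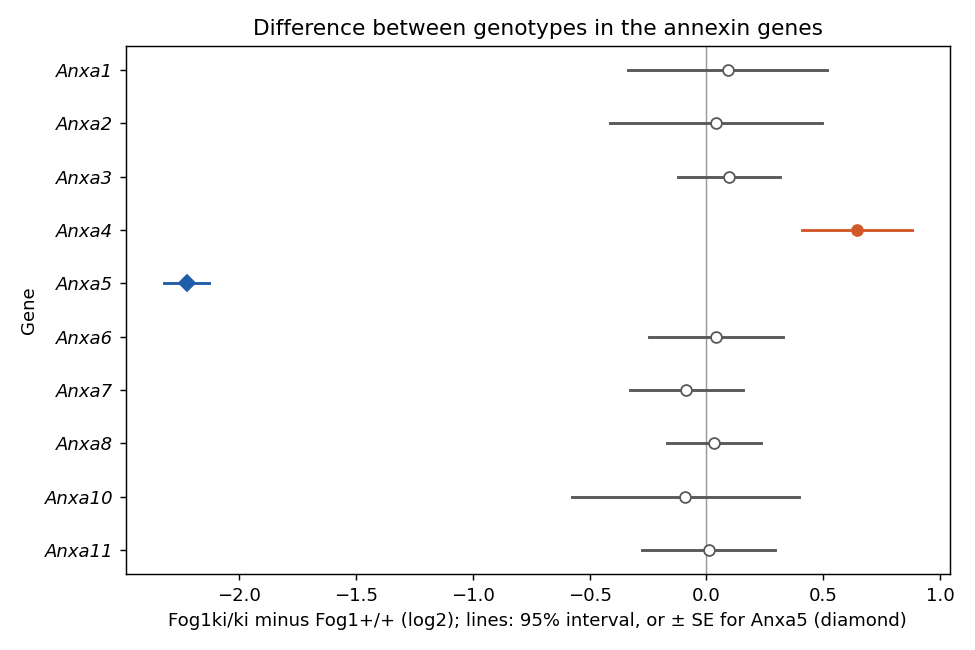
Log2 difference of Fog1ki/ki minus Fog1+/+ (horizontal axis) for each annexin gene, with 95% intervals from limma, or ± SE for Anxa5, which is given as a description and drawn as a diamond; open circles did not pass. Anxa5 lies at -2.22 and Anxa4 at 0.64, and the intervals of the other 8 genes span 0.

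The members whose tails bind S100 proteins or receptors came next. Anxa1, which restrains inflammation through formyl peptide receptors, measured 6.09, 6.45 and 5.98 in Fog1+/+ and 6.55, 6.38 and 5.86 in Fog1ki/ki (log2 difference 0.09, 95% interval -0.34 to 0.52). Its arrays overlapped, and replicate 3 was the lowest in both genotypes. Anxa2, which pairs with S100A10 beneath the plasma membrane, measured 5.97, 5.52 and 6.33 in Fog1+/+ and 6.16, 6.07 and 5.71 in Fog1ki/ki (log2 difference 0.04, 95% interval -0.41 to 0.49). The Fog1+/+ arrays of Anxa2 alone spanned 0.81, more than those of Anxa4 or Anxa5. The sign of the Anxa2 difference turned in 6 of 18 alternative settings, some of which cannot change it, and its value ran from -0.17 to 0.37.

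Anxa11, which binds S100A6 and the calcium sensor PDCD6 and tethers RNA granules to lysosomes, measured 5.74, 5.47 and 5.83 in Fog1+/+ and 5.53, 5.70 and 5.84 in Fog1ki/ki. Its difference, 0.01 (95% interval -0.27 to 0.29), was the smallest in the family. Anxa7, known as synexin for its part in granule fusion, measured 7.97, 7.91 and 7.81 in Fog1+/+ and 7.90, 7.90 and 7.63 in Fog1ki/ki (log2 difference -0.09, 95% interval -0.33 to 0.16). Fog1ki/ki replicate 3 was the lowest Anxa7 array, and without it the difference was 0.0033.

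Anxa6, which carries a duplicated annexin core and binds the Ras regulator RASA1, measured 7.22, 7.58 and 7.64 in Fog1+/+ and 7.55, 7.41 and 7.60 in Fog1ki/ki (log2 difference 0.04, 95% interval -0.25 to 0.33). Fog1+/+ replicate 1 was the lowest of its arrays. A dimmer Anxa6 probe set measured 6.25, 6.30 and 6.42 in Fog1+/+ and 6.69, 6.30 and 6.61 in Fog1ki/ki, which gave 0.21 (SE 0.12, limma adjusted p = 0.656 with every probe set tested). Neither probe set passed, and the genotypes overlapped in both.

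The remaining 3 members had dim probe sets. Anxa3, an annexin of neutrophil granules, measured 4.47, 4.55 and 4.45 in Fog1+/+ and 4.46, 4.60 and 4.70 in Fog1ki/ki (log2 difference 0.10, 95% interval -0.12 to 0.32). Anxa10, which has lost most of the family's calcium sites, measured 4.69, 4.05 and 3.71 in Fog1+/+ and 4.0, 4.18 and 4.0 in Fog1ki/ki (log2 difference -0.09, 95% interval -0.57 to 0.39). Anxa10 had the widest spread of the family in Fog1+/+, 0.98, with replicate 1 the highest, and without that array its difference was 0.18. In both genotypes the means of Anxa3 and Anxa10 were under the arrays' lower quartiles. Anxa8, known as an inhibitor of clotting, lay close to those quartiles, between 4.85 and 5.01 in all 6 arrays (log2 difference 0.03, 95% interval -0.17 to 0.23). RMA compresses differences at such levels, and whether these probe sets exceeded background was not tested.

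Anxa9 and Anxa13, annexins outside the chosen list, did not pass either. Anxa9 measured 6.51, 6.30 and 6.08 in Fog1+/+ and 6.98, 6.28 and 6.65 in Fog1ki/ki (log2 difference 0.34, SE 0.18, limma adjusted p = 0.613). Anxa13, the intestinal annexin, differed by -0.13 on that scale (SE 0.12, limma adjusted p = 0.806).

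**Figure D3:**
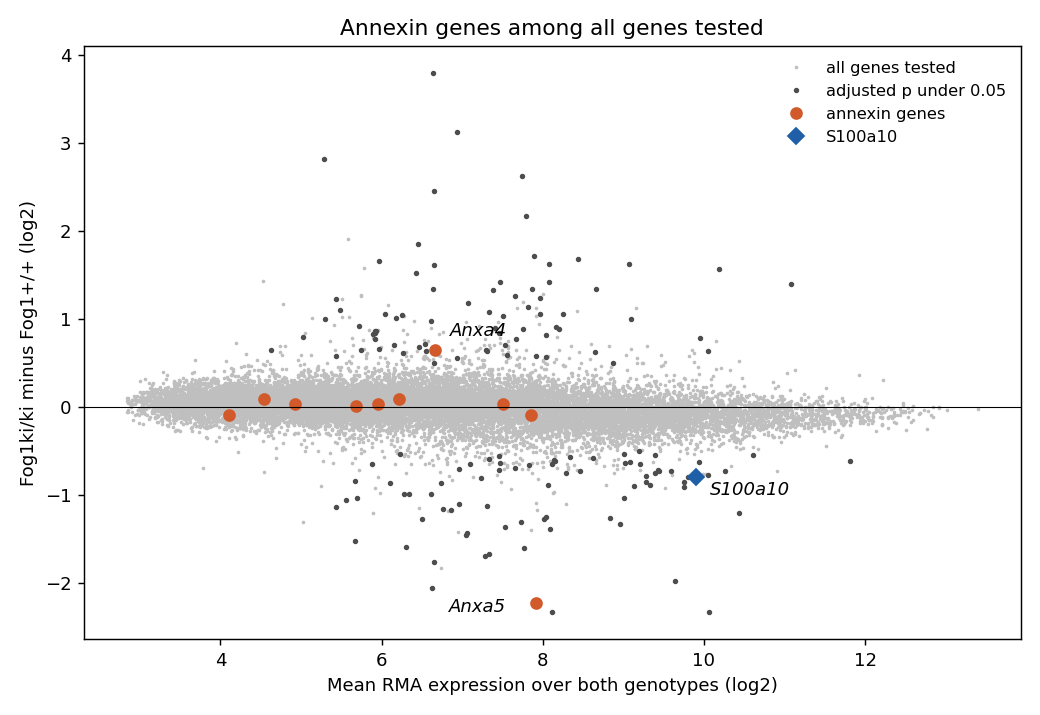
Log2 difference of Fog1ki/ki minus Fog1+/+ (vertical axis) against mean log2 RMA expression over both genotypes (horizontal axis) for all 19661 genes, with those past the threshold in dark grey, the 10 annexin genes as orange circles and S100a10 as a blue diamond. Anxa5 lies at the lower edge of all genes at -2.22, Anxa4 above the main band at 0.64, and the other 8 annexins within it.

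Among the proteins that act with annexins, the partner of Anxa2 fell. S100a10, which encodes the S100 protein that ties annexin A2 into a complex with plasminogen and ion channels, measured 10.26, 10.40 and 10.23 in Fog1+/+ and 9.79, 9.35 and 9.36 in Fog1ki/ki. The genotypes did not overlap, with 0.44 between the nearest arrays, and Fog1ki/ki replicate 1 was the least low. S100a10 was 1.74-fold lower, at 9.50 ± 0.25 against 10.30 ± 0.09 (SD, n = 3 each), which on the log2 scale is -0.80 (SE 0.13, limma adjusted p = 0.0346). Leaving out any array other than Fog1ki/ki replicate 1 ended the call (limma adjusted p 0.111 to 0.134), with arrays centred on their medians (0.0604), with the replicate number as a block (0.0515) and without both replicates 3 (0.329). Its adjusted p ran from 0.00871 to 0.329 over the alternatives, and its log2 difference from -0.94 to -0.71.

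Of 13 measured annexin partners, S100a10 fell, 0 rose and 12 did not pass in limma, beside 0.397% of all genes that fell. Before adjustment 3 lay higher and 2 lower at p under 0.05, as against 9.57% of all genes in either direction. The list had a median log2 difference of 0.0033, against 0.023 over all genes. The other S100 genes differed in sign. S100a4, an S100 protein of motile cells, measured 6.44, 6.15 and 6.76 in Fog1+/+ and 5.84, 6.0 and 5.94 in Fog1ki/ki (log2 difference -0.52, limma adjusted p = 0.233). S100a6, a partner of annexin A11, measured 5.78, 5.77 and 5.89 in Fog1+/+ and 6.08, 6.08 and 6.12 in Fog1ki/ki (log2 difference 0.28, limma adjusted p = 0.296). Neither gene passed the test, and in both the genotypes were apart in all arrays, as in 14.8% of all genes.

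Other partners also stayed short of the threshold. Pla2g4a, the cytosolic phospholipase A2 that annexin A1 is known to restrain, measured 8.60, 8.59 and 8.65 in Fog1+/+ and 9.24, 9.0 and 8.98 in Fog1ki/ki (log2 difference 0.46, limma adjusted p = 0.109). With quantile normalization repeated it passed (limma adjusted p = 0.0332, the lowest of its alternatives, which reached 0.413). Rasa1, the partner of annexin A6, measured 10.09, 10.12 and 10.11 in Fog1+/+ and 10.53, 10.69 and 10.38 in Fog1ki/ki (log2 difference 0.43, limma adjusted p = 0.147). Sri, the sorcin that binds annexin A7, had a log2 difference of -0.20 (SE 0.09), and Pdcd6 one of -0.11 (SE 0.09). The genotypes lay apart in Pla2g4a, Rasa1 and Sri, as in 14.8% of all genes, and overlapped in Pdcd6. S100a11, Fpr1 and Fpr2 had no probe set named for them alone and were not used here.

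Genes that set how much phosphatidylserine, the ligand of annexin A5, is exposed did not pass. Of 14 measured scramblases and flippases, 0 rose and 0 fell in limma (before adjustment 1 higher and 1 lower at p under 0.05), with a median log2 difference of 0.037. Plscr1, a phospholipid scramblase, measured 7.97, 7.96 and 7.94 in Fog1+/+ and 7.52, 7.76 and 7.36 in Fog1ki/ki (log2 difference -0.41, limma adjusted p = 0.225). The scramblase gene Ano6, needed for platelet clotting activity, had a log2 difference of 0.26 (SE 0.20). The caspase-activated scramblase gene Xkr8 had one of 0.02 (SE 0.13), and Tmem30a, the shared subunit of the flippases, one of -0.06 (SE 0.11).

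The 12 genes for bridging proteins and receptors of phosphatidylserine had 0 past the threshold in limma, and before adjustment 0 at p under 0.05, with a median of 0.072. Mfge8, which bridges dying cells to phagocytes, had the smallest p among them (log2 difference 0.15, limma adjusted p = 0.661). Of 13 membrane repair genes, of which Dysf and Pdcd6 are also on the partner list, 0 passed in limma (before adjustment 0 higher and 1 lower at p under 0.05), with a median of -0.03. The gene with the smallest p was Capn2, a subunit of the calcium-activated protease calpain (log2 difference -0.26, limma adjusted p = 0.520). Over all genes 0.773% passed, 9.57% had an unadjusted p under 0.05 in limma and the median was 0.023.

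**Figure D4:**
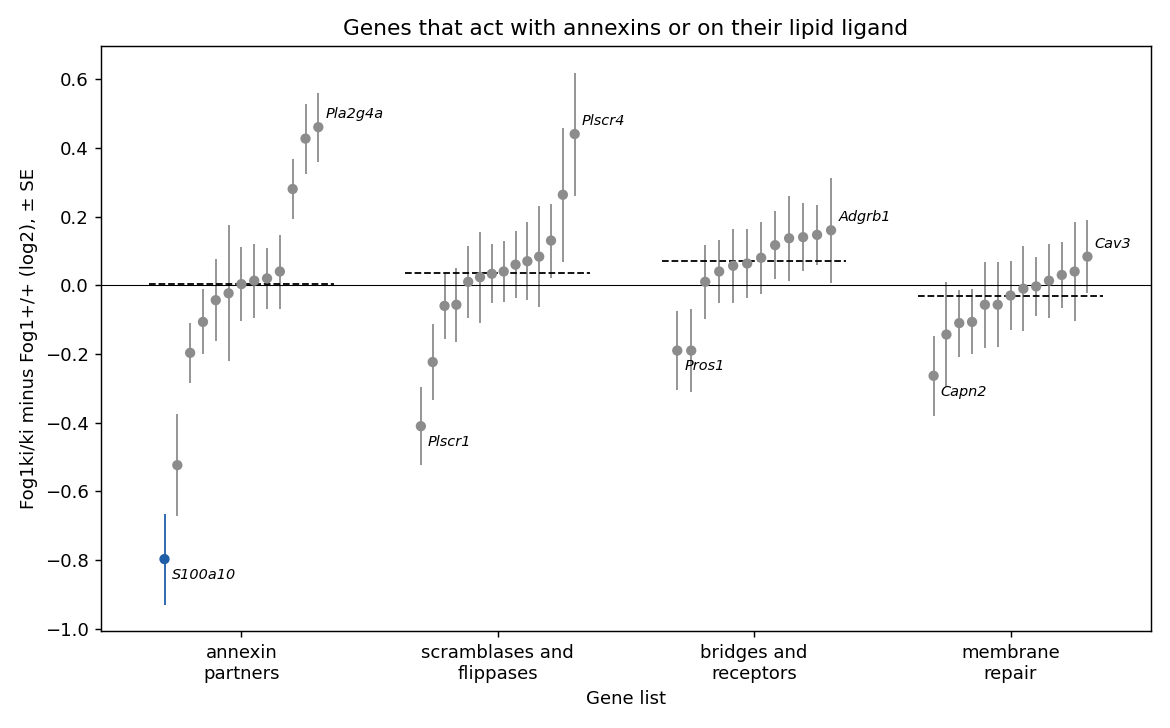
Log2 difference of Fog1ki/ki minus Fog1+/+ (vertical axis, ± SE) for each gene of 4 lists (horizontal axis), with the median of each list as a dashed line and the highest and lowest gene named. S100a10, in blue at -0.80, is the gene past the threshold, and the grey genes did not pass.

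The genes beside the annexins on their chromosomes were read from the RefSeq gene order on GRCm38.p6. Anxa5 lies on chromosome 3 and Anxa4 on chromosome 6, and Zfpm1 lies on chromosome 8, as does Anxa10. Next to Anxa5, the log2 differences were 0.18 for Qrfpr (limma adjusted p = 0.576) and 0.01 for 1810062G17Rik (limma adjusted p = 0.988). Next to Anxa4, they were 0.14 for Gmcl1 (limma adjusted p = 0.810) and 0.20 for Aak1 (limma adjusted p = 0.635). Of the 5 tested genes on each side, 0 of 10 passed around Anxa5 (log2 differences -0.37 to 0.18) and 0 of 10 around Anxa4 (-0.23 to 0.50), beside 0.773% of all genes. The highest around Anxa4 was Gfpt1, close to the threshold (log2 difference 0.50, limma adjusted p = 0.0556). Around S100a10, also on chromosome 3, 0 of 10 passed (-0.10 to 0.16).

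Annexins are abundant in many blood and connective tissue cells, so markers of cells that the sort could have let through were read in the same arrays. Of the 11 neutrophil markers, 6 lay above the array medians in every array and 2 above the upper quartiles. The brightest, S100a9, measured 9.93 to 10.35 in Fog1+/+ and 9.79 to 10.25 in Fog1ki/ki. None of the 11 neutrophil markers passed (0 in limma, 0 at an unadjusted p under 0.05), and their summed linear level overlapped, at 2104 to 3090.0 in Fog1+/+ and 1976 to 2680.4 in Fog1ki/ki. The 9 monocyte and macrophage markers (514 to 537 against 515 to 532) and the 8 stromal and endothelial markers (557 to 559 against 514 to 621) overlapped as well, with 0 past the threshold in limma in each and 1 and 0 at an unadjusted p under 0.05. The ranges of the 6 late erythroid markers also overlapped (4543 to 4995 in Fog1+/+ and 3673 to 4909 in Fog1ki/ki), with 0 past the threshold and 0 at an unadjusted p under 0.05. Overlap was likewise found for 6 B cell markers (400.1 to 536 against 512 to 594) and 7 T and NK cell markers (301 to 363 against 300.1 to 334). Neither list had a gene past the threshold (0 in limma in each, and 0 and 1 at an unadjusted p under 0.05). The genes of smallest p in these lists had log2 differences of -0.29 for S100a8 (neutrophil), 0.29 for Cd14 (monocyte), -0.13 for Pecam1 (endothelial), -0.16 for Rhag (erythroid), 0.49 for Vpreb1 (B cell) and -0.28 for Cd3g (T cell), with limma adjusted p from 0.348 to 0.778.

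Among 9 mast cell markers, 2 rose (Ms4a2 and Gata2), beside 0.376% of all genes that rose, and 7 did not pass. Before adjustment 4 lay higher and 1 lower at p under 0.05, as against 9.57% of all genes in either direction. The one that lay lower was Kit, which also marks the sorted cells, at 10.26, 10.30 and 10.30 in Fog1+/+ and 10.05, 9.72 and 9.96 in Fog1ki/ki (log2 difference -0.38, limma adjusted p = 0.232). Fog1ki/ki was higher without overlap in Ms4a2 (log2 difference 3.79), Fcer1a (1.91), Gata2 (1.14) and Cma1 (0.21), as in 8.31% of all genes. Of these, Fcer1a and Cma1 did not pass (limma adjusted p 0.147 and 0.486). In Cpa3 (0.53), Mcpt4 (0.21), Tpsb2 (0.07) and Hdc (0.06) the log2 difference was positive and the genotypes overlapped. The markers' summed linear level was 1587 to 1639.7 in Fog1+/+ and 1776 to 2425 in Fog1ki/ki, without overlap. In such sums, also those of the other lists, the brightest genes weigh most, here Kit. Kit itself lay lower in Fog1ki/ki, while the sum lay higher. RMA values do not reach 0, and 1 of the 9 lay below the lower quartiles in every array. The part of such cells in the Anxa4, Anxa5 and S100a10 differences was not tested.

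**Figure D5:**
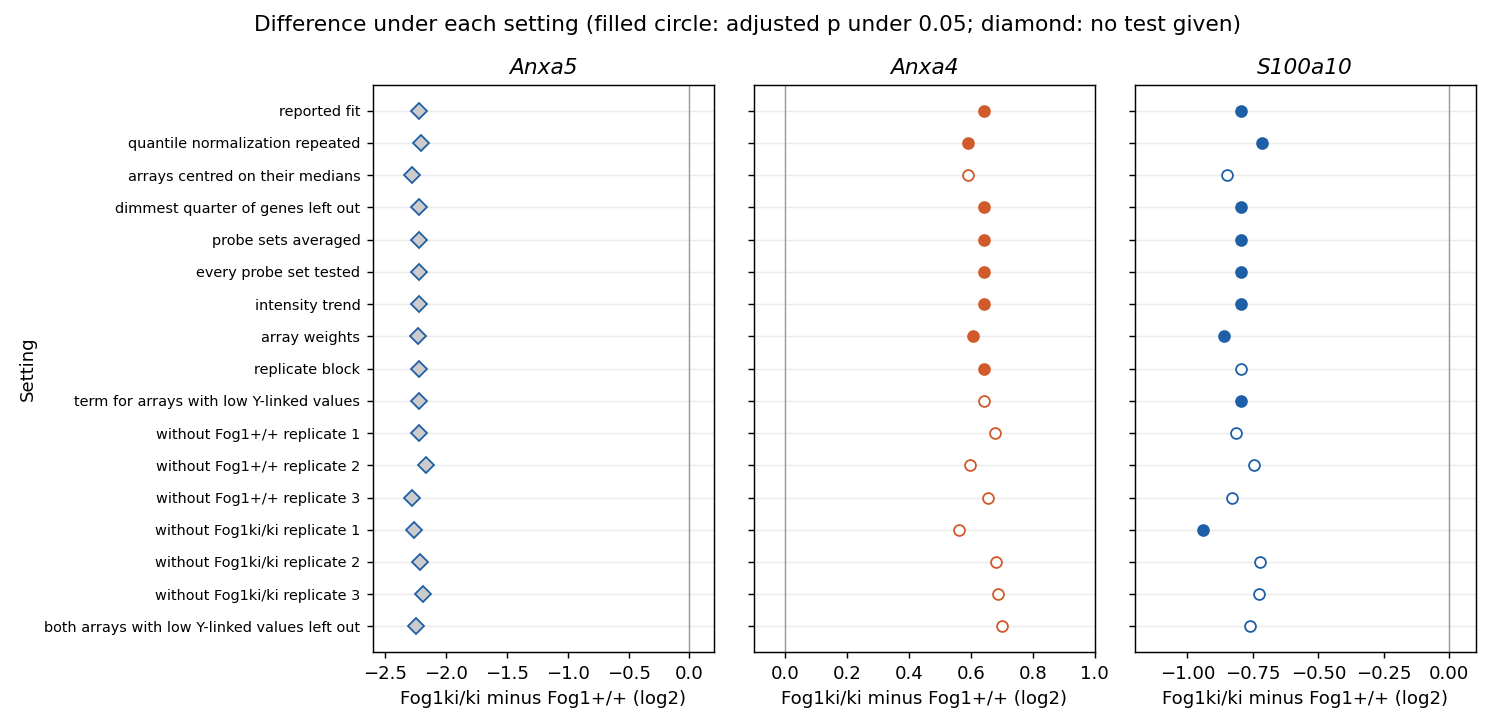
Log2 difference of Fog1ki/ki minus Fog1+/+ (horizontal axes, 1 per gene) for Anxa5, Anxa4 and S100a10 under the reported fit and each alternative setting (vertical axis), where filled circles have an adjusted p under 0.05, open circles do not, and diamonds mark Anxa5, for which no test is given. The differences keep their sign in each setting shown, from -2.28 to -2.165 for Anxa5, 0.56 to 0.70 for Anxa4 and -0.94 to -0.71 for S100a10, while Anxa4 is open whichever array is left out.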

How the data were processed

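Each of 6 arrays held amplified, biotin-labelled RNA of 1 sorted sample. The values deposited by the authors are on a log2 scale, as read from the values, and come from RMA, per the submitters' processing notes, with its version and settings not given in the sources used here. Of 25668 probe sets, the platform annotation, which can be old, named 1 gene for 20777, several for 232 and none for 4659. The brightest probe set stood for each of 19661 genes.

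The fit over all genes was limma's lmFit and eBayes (limma 3.58.1, R 4.3.3), with genotype as its term and two-sided p-values adjusted by Benjamini-Hochberg, and a gene passed at an adjusted p under 0.05. With 3 arrays per genotype, the smallest p of an exact permutation test is 0.1. The script was tested on simulated data. The members and lists were chosen with earlier results of these data known. All members are named, with the called gene or the one of smallest p per list, some for their role, the 5 genes most like Anxa5 and the nearest neighbours; S100a4, S100a9 and Rasa1 were added after their values were seen, and 1 gene of this rule is not reported here. Beyond the words "biological replicates", the labels do not describe the source of each sample, so p-values measure the spread between these samples, which may be in part technical. The number of arrays limits the precision. Python 3.11.15, pandas 2.3.3 and matplotlib 3.10.9 made the tables and figures.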

Additional observations from a re-analysis of the deposited data

How the results depend on the processing

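Over all genes, 152 passed (74 higher, 78 lower). The count was 55 at an adjusted p under 0.01, 24 without both arrays with low Y-linked values (chosen after seeing the data) and 60 to 134 with each array left out (60 without Fog1+/+ replicate 1 or 3, 82 without Fog1ki/ki replicate 2 and 83 without Fog1+/+ replicate 2). With arrays centred on their medians it was 43 higher and 73 lower. Of the 9 annexins other than Anxa5, which is a description and no test, 1 passed, Anxa4, beside 0.773% of all genes. Anxa4 was lost, and the count was 0, with arrays centred, with a term for low Y-linked values and without both such arrays. The same held at an adjusted p under 0.01 and with any 1 array left out. Of the genes on the partner list, both phosphatidylserine lists and the repair list, 1 passed, S100a10. The count was 2 with quantile normalization repeated, 0 with arrays centred, 0 with the replicate block, 0 without both arrays with low Y-linked values, 0 at an adjusted p under 0.01 and 0 to 1 with each array left out. The cause was not tested.

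Same-numbered arrays had correlations of 0.0683, -0.0076 and 0.128 in their deviations from the genotype means, and 4 of 6 arrays correlated best with their own number. Both replicates 3 also shared low Eif2s3y values. These values do not settle whether the replicate numbers pair the arrays. With the replicate block 133 genes passed, among them Anxa4 at a limma adjusted p of 0.0473. Differences of members that did not pass turned sign in some settings, in none of which they passed. With quantile normalization repeated, Anxa2 stood at -0.01, Anxa8 at -0.0175 and Anxa11 at -0.0361. With arrays centred, Anxa2 and Anxa6 stood at -0.0133, Anxa8 at -0.02 and Anxa11 at -0.0433. With array weights, Anxa2 stood at -0.0004. With each array left out, Anxa1 ran from -0.0533 to 0.2917, Anxa2 from -0.17 to 0.235, Anxa6 from -0.09 to 0.12, Anxa7 from -0.1317 to 0.0033, Anxa8 from -0.0017 to 0.0683, Anxa10 from -0.31 to 0.18 and Anxa11 from -0.095 to 0.09. RMA of dim probe sets limits what Anxa3, Anxa8 and Anxa10 can show.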

Other observations

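The 5 named genes whose values followed Anxa5 most closely over the 6 arrays were Ddx21, Pafah1b2, Atl1, Rgcc and Ints10, with Pearson r from 0.994 to 0.996. The 6 arrays share 1 split by genotype, so any gene with a tight difference in the same direction has a high r, and the values are a description. Ddx21, an RNA helicase of the nucleolus, had a log2 difference of -0.25, and Pafah1b2, a subunit of an enzyme that inactivates platelet-activating factor, one of -0.22. The log2 differences were -0.98 for Atl1, which shapes the endoplasmic reticulum, -0.80 for Rgcc, a regulator of the cell cycle, and -0.50 for Ints10, a subunit of the Integrator complex. Choosing genes that follow Anxa5 favours those that differ between the genotypes, so no test is given for them.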
